A study of Rattus norvegicus with 24 samples.

Results

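Cytochrome c oxidase, complex IV of the respiratory chain, was followed through 8 genes that encode alternative forms of its subunits 4, 6a, 7a and 8. Other subunits with a second gene, such as 6b and 7b, were not among the members. The members were taken by symbol as Cox4i1, Cox4i2, Cox6a1, Cox6a2, Cox7a1, Cox7a2, Cox8a and Cox8b, and the row with the highest mean was taken for each. Cox6a2 had 2 rows, with means of 602 and 55.6 CPM over the 24 limbs, and the lower one is left out of its levels and ratios. They were selected on measured values of these limbs, because Cox8a and Cox6a1 had been seen to be higher in the treated limbs while other respiratory chain genes were lower. Of the 8 genes, 7 were analysed, among 13458 symbols in all, and Cox7a1 was not analysed here.

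RNA came from the tibialis anterior (TA), the main ankle dorsiflexor, of both limbs of 12 old male rats of the Fischer 344 strain, whose age was 23 ± 1 months. In 9 animals a pump delivered tetrodotoxin (TTX), a sodium channel blocker that silences the nerve, to the left common peroneal nerve. Left limbs were taken after 6 to 7 d of TTX (atrophy, n = 3), after a further 9 d without it (recovery, n = 3) or after a second exposure of 5 to 6 d (repeated atrophy, n = 3), and the 9 untreated right limbs of these animals were the control group. The 3 sham animals had the surgery without TTX, 1 at each time point, and gave 3 sham left and 3 sham right limbs. All groups were of 1 strain, sex and age, so no young or untouched animal was compared. Values are CPM, read counts scaled so that each limb sums to 1e+06, and log2 differences are of log2(CPM + 1).

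Complex IV takes electrons from cytochrome c and passes them to oxygen, pumping protons across the inner mitochondrial membrane. Its catalytic core is encoded by mitochondrial DNA, and the nuclear subunits around it tune its activity and stability. For subunits 6a, 7a and 8, rodents have a muscle form (Cox6a2, Cox7a1 and Cox8b), abundant in heart and skeletal muscle, and a ubiquitous or liver form (Cox6a1, Cox7a2 and Cox8a) that most tissues use. Subunit 4 differs, since Cox4i1 is the general form, also in muscle, and Cox4i2 is a form known from lung and from low oxygen.

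The promoters of the subunit 8 pair and of Cox6a2 are shown so that both forms of 1 subunit and a second muscle form can be read side by side. RefSeq sequences of build GRCr8 were matched for 6 of the 8 genes, all but Cox6a1 and Cox4i2. Each run is the 250 bases before the annotated start, 5′ to 3′ in the sense of the gene. Capitals mark matches on either strand to the ETS core (CGGAAG), the CCAAT box (CCAAT), the ERR motif (AAGGTCA) and the NRF1 core (TGCGCA), and a MEF2 site added to the search after the sequences had been seen.
Cox8a (chr1:213833624-213833873, minus strand): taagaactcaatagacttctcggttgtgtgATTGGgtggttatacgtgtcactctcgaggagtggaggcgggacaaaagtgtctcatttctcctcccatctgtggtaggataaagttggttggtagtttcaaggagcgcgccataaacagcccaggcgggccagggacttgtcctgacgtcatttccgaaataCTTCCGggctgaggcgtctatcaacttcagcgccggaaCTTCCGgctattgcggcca
Cox8b (chr1:205408274-205408523, minus strand): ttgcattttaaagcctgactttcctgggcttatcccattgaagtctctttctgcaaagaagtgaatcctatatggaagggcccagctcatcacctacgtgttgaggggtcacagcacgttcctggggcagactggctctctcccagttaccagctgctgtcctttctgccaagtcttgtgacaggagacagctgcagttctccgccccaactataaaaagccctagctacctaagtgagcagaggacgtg
Cox6a2 (chr1:192219717-192219966, minus strand): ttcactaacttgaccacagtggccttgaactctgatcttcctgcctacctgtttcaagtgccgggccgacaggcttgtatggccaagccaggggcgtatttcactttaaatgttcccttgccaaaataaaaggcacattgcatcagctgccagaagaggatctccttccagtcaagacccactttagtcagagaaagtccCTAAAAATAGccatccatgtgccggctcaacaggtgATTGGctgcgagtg

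Upstream of Cox8a the ETS core occurred at 2 places, ending 52 and 14 bases before the start, and a CCAAT box stood farther upstream. The ETS core was present in 13.9% and the CCAAT box in 34% of the 33469 rat promoters searched over the same length. Cox8b held neither. Cox6a2 held the MEF2 site between 50 and 41 bases before the start, a motif found in 0.523% of all promoters, and a CCAAT box close to the start. Among the promoters not shown, Cox7a2 held an ETS core and the muscle form Cox7a1 a CCAAT box. No ERR motif (3.99% of promoters) and no NRF1 core (6.14%) was found in the windows of the 6 genes. The E-box (CANNTG, 65.5% of promoters) occurred in all 6. These are matches of letters in 1 window, not measured binding.

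Depth, estimated from the spacing of the lowest CPM values, was 18.9 to 30.9 M reads a limb (median 26.1, where M stands for 1e+06), so that 1 read was worth at most 0.053 CPM. Myofibre markers (8 genes, among them Ckm and Acta1) summed to between 79084 and 231979 CPM in every limb, as the label of skeletal muscle requires. The left limb of atrophy animal 2 stood apart from the other atrophy limbs, with a score of 3.85 on the first principal component against 58.5 and 56.4. Among the right limbs, those of atrophy animal 3 (15.9) and sham animal 3 (26) lay toward the atrophy and repeated atrophy limbs (50.7 to 62.5 but for that 1 limb), as did the left limb of sham animal 3 (31.1). The other right limbs lay between -49 and -3.26, and the recovery limbs between -35.0 and -2.78. CPM values also shifted as a whole: the median over all rows tested was 0.22 above control in atrophy, 0.02 in recovery, 0.20 in repeated atrophy (log2), 0.17 in sham left and 0.15 in sham right limbs. Differences after a second scaling, in which a trimmed mean log ratio of each limb to a reference was set to 0, are therefore given beside the first as rescaled values.

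In control muscle the muscle form dominated the pair for subunits 6a and 8. Per kilobase of transcript, Cox6a2 stood at 1376 ± 180 CPM (SD, n = 9), Cox8b at 1345 ± 494 and Cox4i1 at 1120.1 ± 154, and these 3 levels overlapped. Cox7a2, the only 7a form measured here, was at 233 ± 55.9 CPM per kilobase. Cox8a followed at 53.3 ± 7.0 and Cox6a1 at 48.0 ± 9.2, again overlapping with each other, and Cox4i2 was lowest at 3.62 ± 1.29. The ubiquitous form thus made up 3.42% ± 0.71 of the 6a pair and 4.25% ± 1.53 of the subunit 8 pair, and Cox4i2 made up 0.32% ± 0.098 of the subunit 4 pair (per length, SD, n = 9).

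Among the ubiquitous forms, Cox8a showed the clearest contrast between limbs. In control limbs it ranged from 22.1 to 31.6 CPM with a median of 25.2. The atrophy limbs held 56.9, 29.4 and 45.8 CPM, the recovery limbs 48.4, 49.0 and 45.4, and the repeated atrophy limbs 45.3, 58.0 and 46.0. All recovery and repeated atrophy limbs were therefore above every control limb, and the left limb of atrophy animal 2 lay inside the control range. The left limbs of sham animals 1 and 2 (35.4 and 34.0 CPM), without TTX, were above every control limb too. Differences from control were 0.68 ± 0.16 (log2, SE) in atrophy, 0.84 ± 0.16 in recovery and 0.89 ± 0.16 in repeated atrophy. On rescaled values they were 0.32, 0.80 and 0.52. Without atrophy animal 2, the atrophy difference was 0.96.

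Cox6a1, the ubiquitous 6a form, stood at about the same height. Control limbs ranged from 19.04 to 34.4 CPM with a median of 26.1. Atrophy limbs held 41.7, 23.5 and 46.5 CPM, recovery limbs 46.9, 49.7 and 42.1, and repeated atrophy limbs 39.98, 40.9 and 37.6. Again atrophy animal 2 had the low limb and the other 8 left limbs of TTX animals were above all controls. So was the left limb of sham animal 1 (37.4 CPM). The differences from control were 0.45 ± 0.19, 0.81 ± 0.19 and 0.59 ± 0.19 (log2, SE). Rescaling left 0.77 in recovery but 0.09 in atrophy and 0.21 in repeated atrophy. Without atrophy animal 2 the atrophy difference was 0.74, and without animal 3 it was 0.27.

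Counted over the 7 genes, 0 lay wholly outside the control range in atrophy, where 4.75% of all 14031 rows lay above and 0.52% below it. In recovery Cox8a and Cox6a1, 2 of 7, lay wholly above (5.57% of rows above, 4.84% below). The same 2 did so in repeated atrophy (16.5% of rows above, 3.87% below). The values of these limbs chose the genes, so nothing is read from these counts. On rescaled values, an alternative added after the data were seen, the count was 0 in atrophy (2.16% of rows above, 1.75% below), 2 above in recovery (5.29% above, 7.67% below) and 0 in repeated atrophy (8.35% above, 8.05% below). Without atrophy animal 2, also added later, Cox8a and Cox6a1 lay wholly above and Cox4i1 wholly below control in atrophy (28.8% of rows above, 3.88% below), and Cox4i2 lay wholly below it in repeated atrophy (4.21% of rows below).

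**Figure D1:**
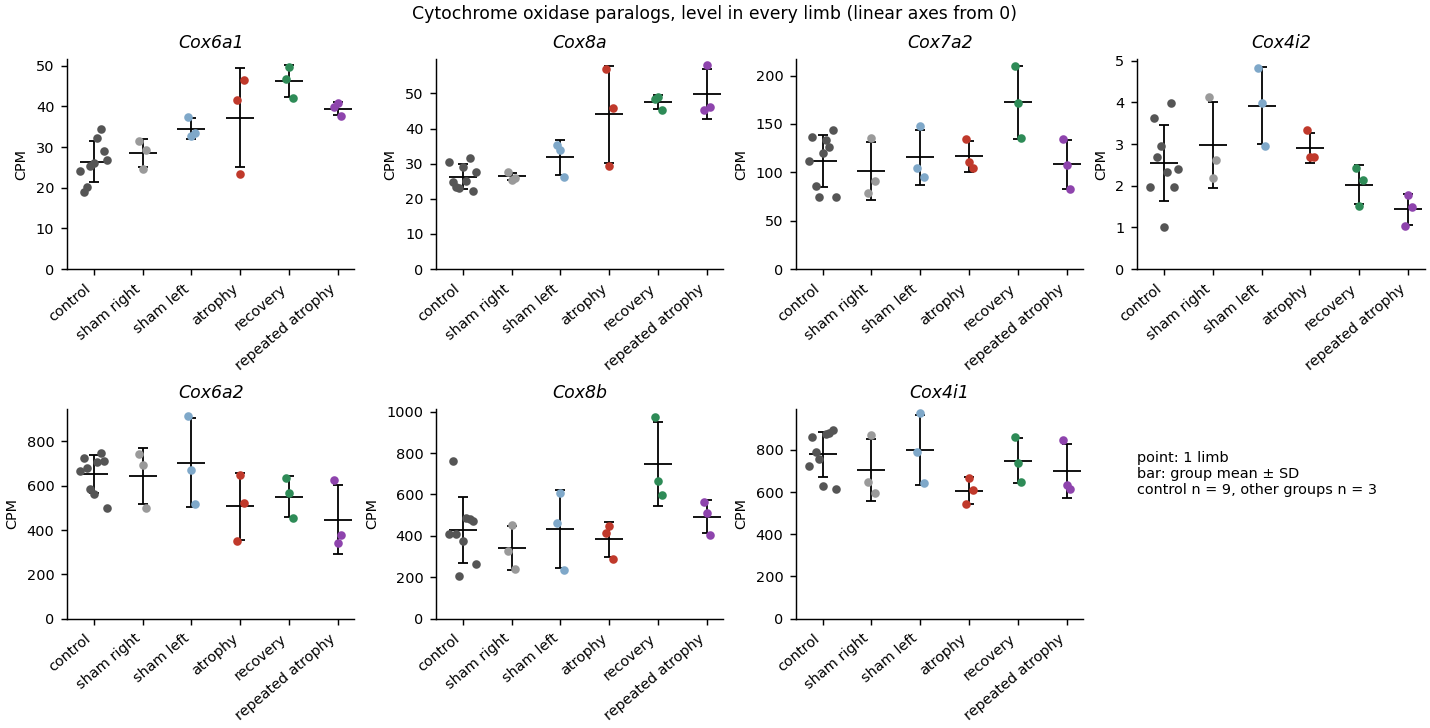
Level of each gene in every limb, in CPM on linear axes from 0, with the ubiquitous forms and Cox4i2 in the upper row and the muscle forms and Cox4i1 in the lower row; points are limbs and bars are the group mean ± SD (control n = 9, other groups n = 3). Cox8a sat between 45.3 and 58.0 CPM in recovery and repeated atrophy, above the control range of 22.1 to 31.6, while Cox8b overlapped control in all 3 groups. The left limbs of sham animals 1 and 2 (35.4 and 34.0 CPM) were also above the control range of Cox8a.

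The muscle form Cox6a2 was lower in most treated limbs. Control limbs held 498 to 746 CPM (median 679). The atrophy limbs held 349, 650.3 and 524 CPM, the recovery limbs 634, 565 and 454, and the repeated atrophy limbs 625, 341 and 377. Of the 9 left limbs, 4 were below every control limb, and each group also had a limb inside the range. Differences were -0.40 ± 0.20 in atrophy, -0.25 ± 0.20 in recovery and -0.59 ± 0.20 in repeated atrophy (log2, SE), and -0.77, -0.29 and -0.97 on rescaled values. The atrophy difference was -0.14 without atrophy animal 1 and -0.62 without atrophy animal 2, and the recovery difference was -0.10 without recovery animal 3.

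Cox8b, the muscle form of subunit 8, did not follow Cox6a2. Its control limbs were widely spread, from 207 to 762 CPM with a median of 410.2. Atrophy limbs held 415, 448 and 287 CPM and repeated atrophy limbs 566, 508 and 406, all inside that range. Recovery limbs were at 976, 666 and 595 CPM, 1 of them above every control limb. The differences from control were -0.10 ± 0.28, 0.85 ± 0.28 and 0.28 ± 0.28 (log2, SE) in the order atrophy, recovery and repeated atrophy. On rescaled values they were -0.47, 0.81 and -0.11, so the sign in repeated atrophy depended on the scaling. Among the treated groups, the recovery limbs were 0.95 ± 0.35 above the atrophy limbs (log2, SE), and the repeated atrophy limbs differed from the recovery limbs by -0.57 ± 0.35.

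Cox7a2 showed its largest difference in recovery. Limbs of that group held 210.1, 172 and 135 CPM, against 74.5 to 144 in control limbs, and 2 of the 3 were above the range. The difference was 0.64 ± 0.21 (log2, SE) in recovery, with 0.09 ± 0.21 in atrophy and -0.03 ± 0.21 in repeated atrophy. Rescaled values were 0.60, -0.28 and -0.41, so the sign in atrophy turned. Sequence copies of Cox7a2, Cox6a1 and Cox4i1 exist in the rat genome as processed pseudogenes, and reads shared with them would be uncertain.

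For subunit 4, Cox4i1 was at 541, 667 and 610.4 CPM in atrophy limbs, 2 of them below the control range of 615 to 893. It overlapped control in recovery (647 to 859 CPM) and repeated atrophy (615 to 847 CPM). Its differences from control were -0.35 ± 0.16, -0.06 ± 0.16 and -0.16 ± 0.16 (log2, SE), and -0.73, -0.10 and -0.54 on rescaled values. Cox4i2 was low in every limb, at 1.01 to 4.81 CPM. Its differences were 0.18 ± 0.22, -0.20 ± 0.22 and -0.51 ± 0.22 (log2, SE), the first of them -0.09 on rescaled values. All 3 repeated atrophy limbs (1.05, 1.77 and 1.49 CPM) were inside the control range, which began at 1.01 CPM in the right limb of atrophy animal 2.

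Because the right limb came from the same animal, the limbs were also compared within each animal. Cox8a was higher in the left limb of 9 of 9 TTX animals, with mean differences of 0.54 ± 0.45 (log2, SD, n = 3) in atrophy, 0.84 ± 0.20 in recovery and 1.03 ± 0.23 in repeated atrophy. The smallest was 0.02, in atrophy animal 2. For Cox6a1 the left limb was higher in 8 of 9, by 0.47 ± 0.53, 0.52 ± 0.0038 and 0.85 ± 0.26. The recovery difference of Cox6a1 was thus smaller within animals than against all 9 control limbs, since the right limbs of the recovery animals (29.0 to 34.4 CPM) were the highest of the control group. Sham animals had Cox8a higher on the left by 0.25 ± 0.22 and Cox6a1 by 0.27 ± 0.10, each in 3 of 3 animals.

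The muscle forms split again within animals. Cox6a2 was lower on the left in 7 of 9 TTX animals, by -0.22 ± 0.63 in atrophy, -0.40 ± 0.25 in recovery and -0.61 ± 0.39 in repeated atrophy (log2, SD, n = 3). In atrophy it was higher on the left in 2 of 3 animals, and the negative mean came from atrophy animal 1 (-0.93). Cox8b was higher on the left in 8 of 9, by 0.13 ± 0.12, 0.61 ± 0.36 and 0.29 ± 0.70. Cox4i1 was lower on the left in 8 of 9, by -0.12 ± 0.26 in atrophy, -0.25 ± 0.22 in recovery and -0.21 ± 0.16 in repeated atrophy, so that its atrophy difference was smaller and its recovery difference larger than against all control limbs. Cox7a2 was higher in 6 of 9, by 0.21 ± 0.30, 0.34 ± 0.38 and 0.15 ± 0.17, the recovery value again below that against all control limbs (0.64). Cox4i2 was higher in 5 of 9, with means of 0.51 ± 0.38, -0.29 ± 0.61 and -0.76 ± 0.39. In the sham animals Cox8b was higher on the left by 0.30 ± 0.28 (2 of 3), Cox7a2 by 0.19 ± 0.18, Cox4i2 by 0.32 ± 0.29 and Cox4i1 by 0.18 ± 0.088 (3 of 3 each), and Cox6a2 by 0.10 ± 0.18 (2 of 3), so the Cox8b differences of atrophy and repeated atrophy were no larger than in sham.

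**Figure D2:**
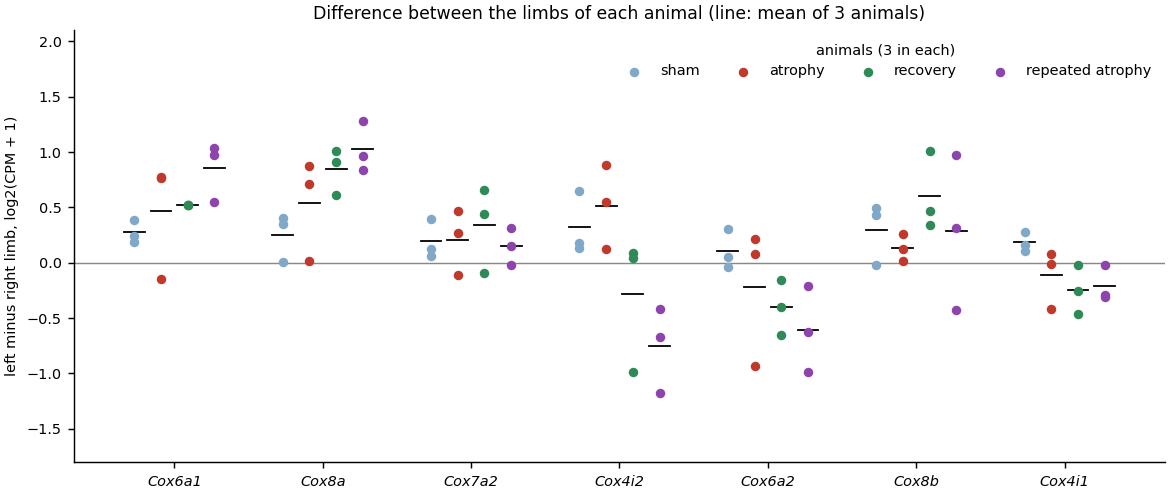
Left minus right limb of each animal on the log2(CPM + 1) scale, for the 7 genes; points are animals, lines are the mean of 3 animals, and colours are the sham, atrophy, recovery and repeated atrophy animals. Cox8a lay above 0 in 9 of 9 TTX animals, Cox6a2 lay below 0 in 7 of 9, and the 3 sham animals lay above 0 for both Cox8a and Cox6a1.

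The ratio of the forms, log2((CPM + 1)/(CPM + 1)) in the same limb, does not depend on the scaling of a limb beyond the pseudocount. For Cox6a2 over Cox6a1 it was 4.59 ± 0.33 in control (SD, n = 9). It was 3.03, 4.73 and 3.47 in the atrophy limbs, 3.73, 3.48 and 3.40 in the recovery limbs and 3.93, 3.03 and 3.29 in the repeated atrophy limbs. Every recovery and repeated atrophy limb was below the lowest control limb (4.17), and the left limb of atrophy animal 2 was well inside the control range. Both limbs of sham animal 3, which had no TTX, were also below the lowest control limb (3.92 left and 4.05 right). The differences from control were -0.85 ± 0.52, -1.05 ± 0.15 and -1.17 ± 0.29 (log2, SE). The atrophy difference was -1.37 without atrophy animal 2 and -0.47 without atrophy animal 1. Per length, Cox6a1 made up 6.51% ± 3.22 of the pair in atrophy, 6.83% ± 0.73 in recovery and 7.53% ± 2.11 in repeated atrophy (SD, n = 3).

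The ratio of Cox8b over Cox8a behaved otherwise in recovery. Control limbs were at 3.90 ± 0.56 (SD, n = 9), atrophy limbs at 2.85, 3.89 and 2.62, and repeated atrophy limbs at 3.61, 3.11 and 3.11. Recovery limbs were at 4.31, 3.74 and 3.68, close to the control mean. Differences from control were -0.78 ± 0.43 in atrophy, 0.01 ± 0.27 in recovery and -0.62 ± 0.25 in repeated atrophy (log2, SE), and only in atrophy did more than 1 limb lie below the lowest control limb (3.11). The atrophy difference was -1.19 without atrophy animal 2, and the recovery difference ranged from -0.15 without recovery animal 1 to 0.18 without recovery animal 3. Cox8a made up 7.17% ± 2.77, 4.10% ± 0.87 and 6.19% ± 1.11 of the pair in the 3 groups (per length, SD, n = 3). Within animals, left minus right, the ratio of Cox8b over Cox8a was -0.40 ± 0.57 in atrophy, -0.24 ± 0.39 in recovery and -0.74 ± 0.66 in repeated atrophy (log2, SD, n = 3), lower on the left in 2 of 3 animals each time. For Cox6a2 over Cox6a1 the same differences were -0.68 ± 1.03, -0.92 ± 0.25 and -1.46 ± 0.44, lower on the left in 2, 3 and 3 of 3 animals. In the sham animals they were 0.05 ± 0.087 for the subunit 8 pair and -0.17 ± 0.25 for the 6a pair.

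For the subunit 4 pair, Cox4i1 over Cox4i2 was 7.81 ± 0.32 in control (SD, n = 9). Its differences from control were -0.53 ± 0.19 in atrophy, 0.14 ± 0.18 in recovery and 0.35 ± 0.29 in repeated atrophy (log2, SE). With Cox4i2 near 1 CPM the ratio leans on the pseudocount, and the repeated atrophy difference was -0.03 with a pseudocount of 10. It also rested on 1 animal, being 0.05 without repeated atrophy animal 1 and 0.50 without animal 2.

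**Figure D3:**
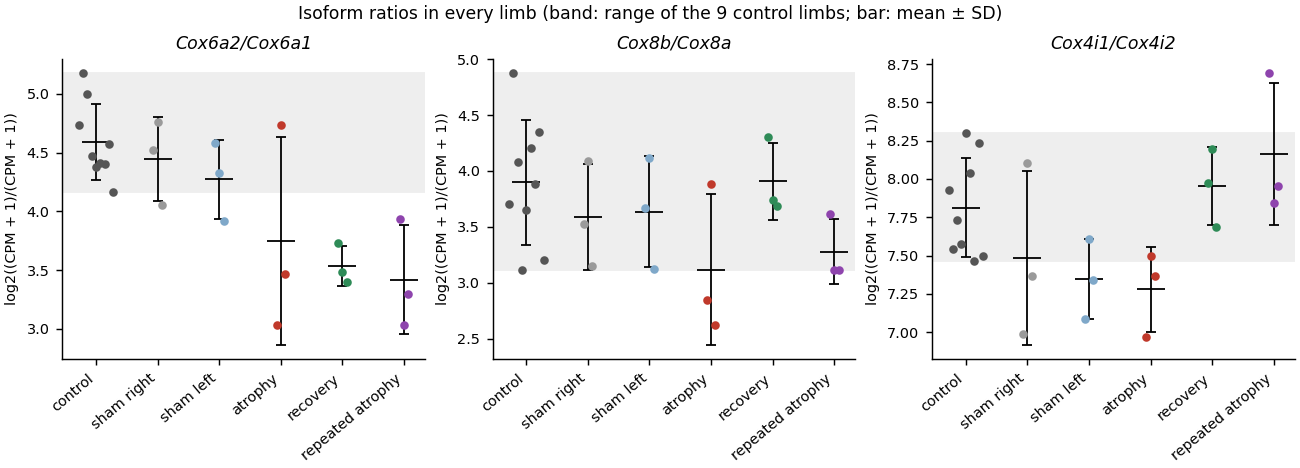
Log2 ratio of the forms in every limb for the 3 pairs; points are limbs, bars are the group mean ± SD, and the band is the range of the 9 control limbs. For Cox6a2 over Cox6a1 the recovery and repeated atrophy limbs (3.03 to 3.93) were below the band, as were the limbs of sham animal 3 (3.92 and 4.05). For Cox8b over Cox8a the recovery limbs (3.68 to 4.31) were inside the band.

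Comparisons other than those of treated limbs with control, which had chosen the genes, were tested. Limma was run across all rows, calling a row at a 1.2-fold difference or more with an adjusted p (Benjamini-Hochberg) no higher than 0.05. Apart from sham left against sham right, each comparison still used control or treated limbs whose values had entered the choice. These tests are therefore not independent of the choice. Between repeated atrophy and atrophy, 0 of 7 genes were called (0.0356% of 14031 rows were). Cox8a differed by 0.21 ± 0.20 (log2, SE, adjusted p = 1) and Cox6a1 by 0.14 ± 0.23 (adjusted p = 1). Both differences turned sign without atrophy animal 2, to -0.04 and -0.15. Cox4i2 was 0.69 ± 0.27 lower in repeated atrophy in log2 units, with an unadjusted limma p of 0.020 and an adjusted p of 0.65.

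In the comparisons of sham and control limbs, limma called 0 of 7 genes and 0% of rows each time. For the left sham limbs against control, 1904 of 13822 rows had an unadjusted p below 0.05. There Cox6a1 was 0.39 ± 0.17 higher (log2, SE, adjusted p = 0.35) and Cox8a 0.26 ± 0.15 (adjusted p = 0.42), values that were 0.16 and 0.03 after rescaling. The sham left and sham right limbs (0% of 13483 rows called, 85 with an unadjusted p below 0.05) differed by 0.27 ± 0.19 for Cox6a1 and 0.25 ± 0.20 for Cox8a (adjusted p = 1 for both). That test did not pair the limbs of each animal. The sham right limbs against control (0% of 13848 rows, 1132 with an unadjusted p below 0.05) differed by 0.12 ± 0.18 for Cox6a1 and 0.01 ± 0.14 for Cox8a (adjusted p = 0.79 and 0.98). Across the 3 time points of the control limbs, 0 of 7 genes and 0% of 13600 rows were called, with 1892 rows at an unadjusted p below 0.05. The time point means of Cox6a1 spanned 0.55 in log2 (21.6 ± 3.37 CPM in the right limbs of repeated atrophy animals, 31.9 ± 2.73 in those of recovery animals, adjusted p = 0.28), and those of Cox4i1 spanned 0.43 (adjusted p = 0.32). Over 22 alternative settings, 0 of 639 values of these genes in the tested comparisons were called. At 3 limbs a group, a missed call does not show that the levels were alike.

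The ratios were compared in the same contrasts by exact two-sided permutation tests, adjusted over 15 tests. None passed: the lowest adjusted p was 0.64, and tests of 3 limbs against 3 could not have passed whatever the values. Cox6a2 over Cox6a1 differed by -0.33 between repeated atrophy and atrophy (exact p = 0.60, where 0.1 is the smallest that 3 limbs against 3 can give, and a difference of 0.17 without atrophy animal 2) and by -0.32 between sham left and control limbs (exact p = 0.17). Cox8b over Cox8a differed by 0.16 (exact p = 0.80) and -0.26 (exact p = 0.50). The first of these was -0.09 without atrophy animal 3 and 0.55 without atrophy animal 2. Cox4i1 over Cox4i2 was 0.88 higher in repeated atrophy than in atrophy (exact p = 0.10, the smallest this test can give, so nothing is concluded from it). It was 0.47 log2 units lower in sham left limbs than in control (a difference of -0.47, exact p = 0.050), which did not hold after adjustment.

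Of 42 other genes of complex IV listed, 32 were analysed. The vs control comparisons of the respiratory chain had entered the choice of the members, so the counts are a description. Of 7 other nuclear subunits (Cox5a, Cox5b, Cox6b1, Cox6c, Cox7b, Cox7c and Ndufa4), 0 were called by limma in any of the 3 comparisons with control, and their medians were -0.07, 0.46 and -0.19 (log2) in atrophy, recovery and repeated atrophy, beside 0.22, 0.02 and 0.20 over all rows. On rescaled values the medians were -0.44, 0.42 and -0.58, and 1 of the 7, Cox5a, was called lower in repeated atrophy, where 12.1% of all rows were. Cox8b, too, had its highest value in recovery. Of 2 further paralogs, Cox7a2l, a 7a-related protein of respiratory supercomplexes named after its values were seen, was called higher in atrophy, and neither was called in the other comparisons, on rescaled values or with the animal as a block. The differences of Cox7a2l were 0.36 ± 0.12, 0.23 ± 0.12 and 0.25 ± 0.12 (log2, SE), and -0.01, 0.18 and -0.13 on rescaled values. Cox6b2 had a mean of 0.067 CPM in control. Of 23 assembly genes tested, 6 were called higher and 0 lower in atrophy (20.3% and 2.33% of all rows), 3 and 0 in recovery (4.4% and 3.33%), and 9 and 3 in repeated atrophy (28.1% and 6.24%). On rescaled values the split was 2 higher and 4 lower in atrophy (4.57% and 5.13% of all rows), 1 and 1 in recovery (5.77% and 6.33%), and 2 and 5 in repeated atrophy (13% and 12.1%). With the animal as a block, it was 0 and 0 in atrophy (0% and 0% of all rows), 0 and 0 in recovery (0.0428% and 0.0214%), and 7 and 0 in repeated atrophy (21.5% and 5.66%).

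The 4 highest and 4 lowest of these genes after repeated atrophy were picked on that comparison itself, so their values are given without a test. Cox17, a copper chaperone for complex IV, was at 117 ± 17.6 CPM (SD, n = 3) against 59.2 ± 13.7 in control (n = 9), a log2 difference of 0.99 ± 0.19 (SE). Cmc1, a factor that binds newly made Cox1, differed by 1.13 ± 0.29, and Coa8 and Cox16, both needed for assembly, by 0.66 ± 0.15 and 0.68 ± 0.26. Rescaled differences were 0.61, 0.76, 0.28 and 0.31 in that order, and within animals they were 1.25, 1.26, 0.75 and 0.65. The lowest were the assembly gene Cox19, the subunit Cox5a and the assembly genes Cox14 and Coa5, at -0.34 ± 0.10, -0.41 ± 0.22, -0.45 ± 0.14 and -0.47 ± 0.16. These were -0.71, -0.80, -0.82 and -0.85 on rescaled values, but -0.27, -0.23, -0.27 and -0.34 within animals.

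**Figure D4:**
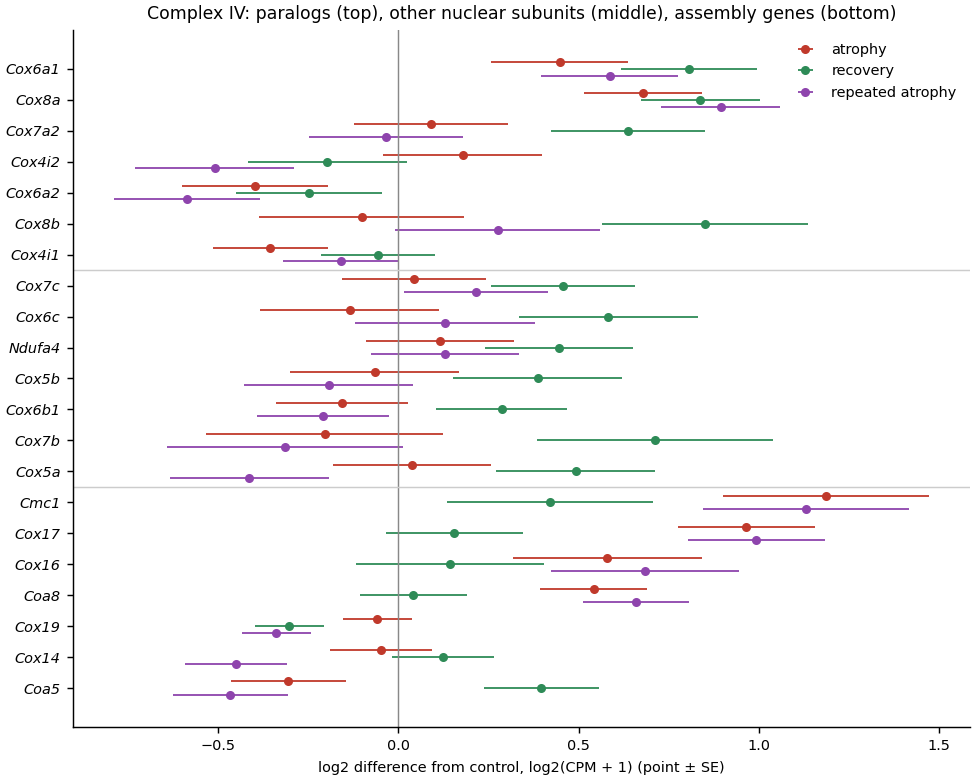
Log2 difference from the 9 control limbs, point ± SE, for the 7 paralogs, 7 other nuclear subunits and 7 named assembly genes of complex IV, in atrophy, recovery and repeated atrophy (3 limbs a group). Cox8a and Cox6a1 lay right of 0 in all 3 groups, while Cox8b (0.85) and the other nuclear subunits (median 0.46) had their highest values in recovery.

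Outside complex IV, 62 subunits of complexes I, II, III and V were tested. In atrophy 4 were called lower and 0 higher (2.33% and 20.3% of all rows), in recovery 6 higher and 0 lower (4.4% and 3.33%), and in repeated atrophy 18 lower and 1 higher (6.24% and 28.1%), with medians of -0.21, 0.42 and -0.28 (log2). Rescaled, 12 were called lower in atrophy (5.13% of all rows) and 29 in repeated atrophy (12.1%), and 0 higher in recovery (5.77%). With the animal as a block, 0 were called in atrophy (0%), 0 higher in recovery (0.0428%), and 11 lower and 2 higher in repeated atrophy (5.66% and 21.5%). Cytochrome c (Cycs), the electron donor of complex IV, stood at -0.21, 0.88 and -0.97, called only in repeated atrophy and not with the animal as a block. The median differences of the 62 subunits on rescaled values were -0.58, 0.38 and -0.66.

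Muscle-type and other-type genes are paired in other pathways too, and 11 such pairs were set beside the oxidase. After repeated atrophy the ratio was lower than in control for 11 of 11 and wholly below the control range for 10, with a median difference of -2.30 (log2). The lowest were Rpl3l over Rpl3 (ribosomal proteins, -4.46) and Ampd1 over Ampd3 (AMP deaminases, -3.60). The highest were Ckm over Ckb (creatine kinases, -0.59) and Pfkm over Pfkp (phosphofructokinases, -1.60). The oxidase differences of -1.17 (6a) and -0.62 (subunit 8) lay at the shallow end of this range. In atrophy 11 of 11 were lower and 0 wholly below the control range, with a median of -1.8 and values from -3.34 to -1.02, beside -0.85 (6a) and -0.78 (subunit 8). In recovery the median of the 11 was -0.35 and the lowest -0.81, for Eef1a2 over Eef1a1, beside -1.05 (6a) and 0.01 (subunit 8). The oxidase values come from the comparisons that chose the genes, and their order among the pairs is a description. Sham left limbs also had lower ratios than control in 11 of 11 pairs (median -0.99), and sham right limbs did so too (median -0.73).

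**Figure D5:**
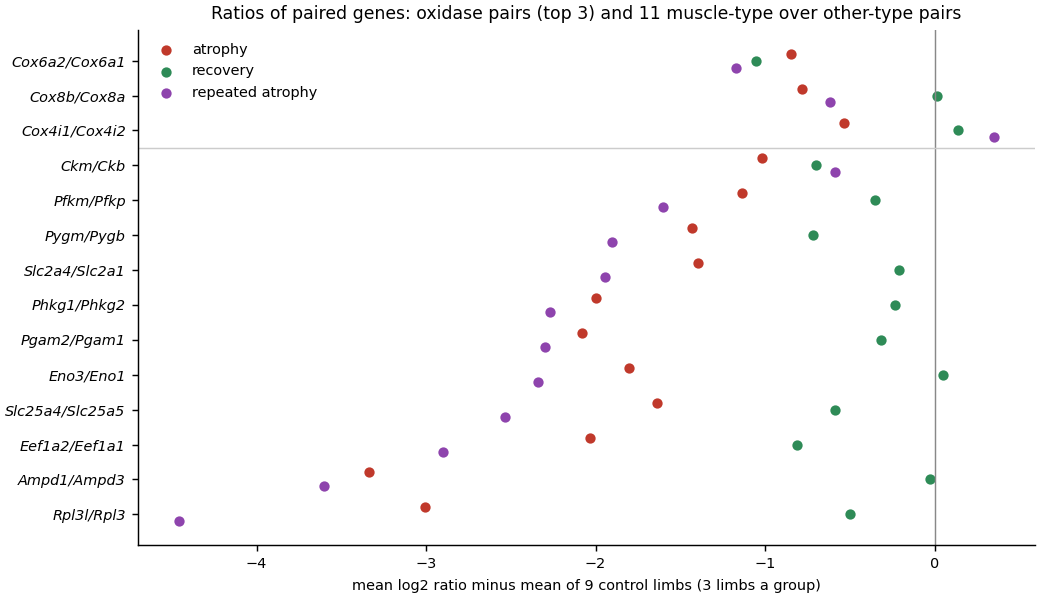
Mean log2 ratio of the paired genes minus its mean in 9 control limbs, for 3 oxidase pairs (top, where Cox4i1 over Cox4i2 is not a muscle-type pair) and 11 pairs of muscle-type over other-type genes, in atrophy, recovery and repeated atrophy (points, 3 limbs a group). Repeated atrophy values of the other pairs ran from -4.46 to -0.59, and Cox6a2 over Cox6a1 had the lowest recovery value of the pairs plotted, -1.05.

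The genes whose course over the 24 limbs lay nearest to each member were found among 6538 genes with a mean of at least 10 CPM, by the root mean square difference of log2(CPM + 1) from the control mean. For Cox8a they were Tefm (0.16), a mitochondrial transcription elongation factor, Tmem256 (0.17), Tiprl (0.21) and Mrpl21 (0.21), a mitochondrial ribosomal protein. Cox6a1 was nearest to Dap3 (0.22), also of the mitochondrial ribosome, then Cdc5l (0.24), a splicing factor, Hcfc2 (0.24) and Il13ra1 (0.25), a cytokine receptor. Cox8a and Cox6a1 lay 0.24 apart.

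The muscle forms had other neighbours. Cox6a2 lay nearest to Fxyd1 (0.18), a small membrane protein of the FXYD family, Mtln (0.19), a mitochondrial micropeptide, Dynll2 (0.19), a dynein light chain, and Uqcr11 (0.21) of complex III. It was 0.25 from Cox4i1 but 0.75 from its partner Cox6a1. Cox8b lay nearest to 4 respiratory chain subunits, Cox6c (0.24), Ndufb3 (0.27), Ndufa2 (0.27) and Cox7c (0.27), and stood 0.59 from Cox8a and 0.63 from Cox6a2. All these distances share the same 24 libraries and are given without a test.

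Markers of other cells moved with some groups. The 8 fibroblast markers summed to 1266 to 2400 CPM in recovery limbs against 222 to 652 in control limbs, and 6 of 8 were called higher. The 10 macrophage and leukocyte markers summed to 199 to 453 CPM against 60.1 to 217, and 4 of 10 were called higher. Of all rows, 4.4% were called higher in recovery. With the animal as a block, 0 of either list were called, where only 0.0428% of all rows were called higher. Satellite cell markers (4 genes) summed to 15.7 to 90.9 CPM in atrophy and 40.2 to 71.1 in repeated atrophy against 9.58 to 16.8 in control. Only 1 of the 4 was called higher in each of these groups (20.3% and 28.1% of all rows). Their median differences were 0.15 and 0.14 (log2), beside 0.22 and 0.20 over all rows, so the sums do not stand for the whole list. Myofibre markers summed to 104568 to 147728 CPM in repeated atrophy, below all control limbs (169541 to 231979). In atrophy they summed to 79084 to 179680 CPM with a lower median (93148), but 1 limb lay inside the control range. Sums of the endothelial, smooth muscle and pericyte, Schwann cell and adipocyte markers overlapped control in these groups, except that the endothelial sums in recovery (211 to 219.99 CPM) were below all control limbs. In the sham limbs the endothelial sums reached 575 CPM on the left and 675 CPM on the right, and the satellite cell sums 73.1 and 56.8 CPM. No marker was at 0 in every limb of a group, and Pax7, Calcr, Plin1, Lep and Pck1 were at 0 in some limb. The part of other cells in the values of the members was not tested, and in whole muscle a change in the number of cells of a type and in the RNA of each cell cannot be told apart.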

How the data were processed

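RNA-seq of the TA of 24 limbs was used, from 1 table in which 24 of 27 value columns match the sample labels. The other 3 value columns were not used. Per the submitters' processing notes and the study's methods, the authors removed contaminants with Bowtie2 2.2.5, aligned to rn7 with STAR and processed reads in Partek. The authors' deposited unit is CPM, as each column sums to 1e+06, and the transcript length is deposited beside them. The study's methods name a median of ratios normalization for its expression analysis, which would not give columns of equal sum, so the values were read as CPM from their totals alone. The counting step is not given in the sources used here. Of 14271 rows, 28 exact duplicates were dropped. Depth was inferred from the smallest step, and 88.4% to 90.0% of values below 5 CPM were whole multiples of it within 0.05 steps, so reads were not treated as recovered.

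The members and gene lists were chosen with earlier results of these data known. Rows above 0 in at least 3 limbs were tested as log2(CPM + 1) with limma 3.58.1 (R 4.3.3) and an intensity trend. Calls needed a 1.2-fold difference and an adjusted p no higher than 0.05. The design had foreseen 4 pairs, and the test of ratios covered 3 because Cox7a1 was not analysed. Ratios were tested with Python 3.11.15 and numpy 2.4.6. The limma step was tested on simulated data. Left and right limbs pair by animal, per the labels: their deviations correlated at -0.18 to 0.82 over rows, above 0.1 in 7 of 12 animals. Sham left and sham right limbs came from the same animals, as did control and treated limbs. The main limma fit and the permutation tests took all limbs as independent and left this pairing out. Only the fit with the animal as a replicate block used it. The p-values thus rest on the spread between the limbs of these animals.

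Named genes were the members, the 4 highest and 4 lowest other complex IV genes in repeated atrophy against control (mean of at least 1 CPM), the 4 nearest genes to each of 4 members, and the extreme 2 pairs at each end, with Eef1a2 over Eef1a1 named after its values were seen. Alternatives were pseudocounts of 0.1 and 10, rescaling (30% of ratios and 5% of levels trimmed), quantile normalization, a 10 CPM minimum mean, no filter, no trend, no minimum fold, rows summed per symbol, the animal as a replicate block, 12 right limbs as control and leaving out each animal. A further pair of the design is not reported here. Coordinates of promoters are of GRCr8 and were not carried to rn7.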

Additional observations from a re-analysis of the deposited data

Results flagged for a closer look

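Among the control limbs, 10 sets of 9 values (7 genes and 3 ratios) were searched for a value apart from the rest, which chance gives in about 1 of 20 sets. Such a value was found in 1 set: Cox8b was at 762 CPM in the right limb of repeated atrophy animal 1, and the next highest control limb was at 484 CPM. That gap was 0.50 of the range, above Dixon's critical value for a set of that size.

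The difference between left and right limb had opposite signs in all animals of 2 arms for a few items. Cox4i2 was higher on the left in all 3 atrophy animals (mean 0.51, log2) and lower in all 3 repeated atrophy animals (mean -0.76), a gap of 1.27. The limma test of that gap with the animal as a block gave an adjusted p of 0.80. Against the sham animals (mean 0.32) the gap of Cox4i2 in repeated atrophy was 1.08, which was not tested. Cox4i1 was higher on the left in the 3 sham animals (mean 0.18) and lower in all recovery (mean -0.25) and all repeated atrophy animals (mean -0.21), gaps of 0.43 and 0.39 that were not tested. The ratio of Cox4i1 over Cox4i2 was higher on the left in repeated atrophy (mean 0.55) and lower in atrophy (mean -0.63), a gap of 1.18 that was not tested within animals. Cox4i2 was at or below 4.81 CPM in every limb.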

How the results depend on the processing

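Most values moved by less than the spread between limbs, or counts by less than 1.5 times: 297 of 300 ratio values over the alternatives, 950 of 975 differences of single genes and 118 of 152 counts of called rows. The log2 ratio of Cox6a2 over Cox6a1 in atrophy ranged from -1.37 to -0.47 when each animal was left out, the ends being without atrophy animal 2 and without atrophy animal 1. A pseudocount of 10 turned Cox4i1 over Cox4i2 in repeated atrophy to -0.0263. Cox8b in repeated atrophy turned to -0.11 on rescaled and to -0.0016 on quantile normalized values. Some values near 0 also turned sign with an animal left out: Cox4i1 over Cox4i2 in recovery (-0.03 without recovery animal 2), and the differences from control of Cox8b (0.02) and Cox7a2 (-0.01) in atrophy, Cox4i1 in recovery (0.07) and Cox7a2 in repeated atrophy (0.08).

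Counts of called rows moved more. Against control, the count in atrophy (3171) was 1361 rescaled, 1502 quantile normalized and 0 with the animal as a replicate block, and ranged from 1 (without atrophy animal 1) to 4841 (without atrophy animal 2) when animals were left out, with 1830 without atrophy animal 3 and 2072 without recovery animal 1. In recovery (1084) it was 1697 rescaled, 1684 quantile normalized and 9 with the replicate block, and ranged from 184 (without recovery animal 1) to 1478, with 457 and 537 without recovery animals 2 and 3 and 622 without repeated atrophy animal 2. In repeated atrophy (4812) it ranged from 2573 (without repeated atrophy animal 2) to 5254. The block changed no other count by over 1.5 times apart from repeated atrophy against atrophy.

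Between repeated atrophy and atrophy, 5 rows were called, 11 with a pseudocount of 0.1, 0 rescaled, 9 quantile normalized, 8 with rows summed per symbol, 0 with the replicate block, and 0 (without repeated atrophy animal 3 or recovery animal 1) to 36 (without atrophy animal 1) with an animal left out. Sham left against control gave 1 with rows summed, and 0 to 118 with an animal left out (118 without sham animal 2, 8 without sham animal 3). Sham right against control gave 0 to 117 (without sham animal 2). The control limbs gave 23 rows at a mean of at least 10 CPM, and 0 to 330 (without atrophy animal 1). None of these calls was a member. The causes were not tested.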
